A study of Mus musculus with 20 samples.

Results

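The genes described here encode integrins and other adhesion molecules of leukocytes. They comprise 18 integrin alpha subunits, 9 integrin beta subunits and 14 selectins, selectin ligands and immunoglobulin-family or junctional adhesion molecules. All 41 were chosen by gene symbol and all were found among the 49997 genes counted in each cell type. The libraries came from cultured primary mouse bone marrow cells of 2 sorted populations. Haematopoietic stem cells (HSC) were CD201+, CD150+, Kit+, Sca1+ and lineage-negative, and haematopoietic progenitor cells (HPC) were CD201-, CD150-, Kit+, Sca1+ and lineage-negative. Each population was Runx2 wild type (WT), heterozygous knockout (het) or homozygous knockout (hom), with 3 libraries of polyadenylated RNA in each of the 6 groups. The series speaks of Runx2-flox mice or CRISPR knockout, and neither the route used for a given library nor the age, strain or number of animals is given in the labels. Nothing in them says that the 3 libraries of a group came from separate animals or cultures, so the p-values measure the spread between these libraries, which may be technical.

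Integrins are heterodimers of 1 alpha and 1 beta subunit that span the cell membrane and bind extracellular matrix or counter-receptors on other cells. Their affinity is raised from inside the cell by talins and kindlins acting on the beta tail. In bone marrow, integrins that contain the alpha 4 subunit hold stem and progenitor cells to fibronectin and VCAM1, selectins and their glycosylated ligands slow rolling leukocytes on vessel walls, and the beta 2 integrins serve adhesion and phagocytosis by myeloid cells and lymphocytes. RUNX2 is a transcription factor of the runt family, best known from bone formation, and binds DNA with the partner CBFB.

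Library totals were 16663497 to 27061457 counts, and 3 counts, taken as the floor for a level, equalled 0.111 to 0.18 CPM (counts scaled to the same library size). Floors cover counting error only. Runx2 in CPM was 119, 126 and 122 in HSC WT, 84, 89.5 and 81.9 in HSC het and 25.4, 28 and 24.7 in HSC hom. In HPC it was 122, 128 and 128 in WT, 105, 108 and 99.3 in het and 23.5, 22.4 and 24.6 in hom. The 3 genotypes did not overlap in either population, and the het mean was 69.7% of WT in HSC and 82.6% in HPC. Of the sort markers, Procr (CD201) and Slamf1 (CD150) were 8.11-fold and 1.78-fold higher in HSC WT than in HPC WT, Kit was at 412 to 483 CPM in both, and Ly6a (Sca1) had 0 counts in all 18 libraries, which leaves that marker unchecked. The Y-linked Ddx3y was at 113 to 157 CPM in all HSC libraries and 0 counts in all HPC libraries, and Xist at 2753 to 4742 CPM in HPC and at most 1.15 CPM in HSC. Cell type and sex of the donors therefore cannot be told apart. The 3 HSC hom libraries were spread more widely than the other groups of their population, at 34.5, 12.1 and -13.8 on the second principal component against -15.4 to 6.05 for HSC WT and het.

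A call required an adjusted p below 0.05 in edgeR's quasi-likelihood test with Benjamini-Hochberg adjustment over all genes, and "rose" and "fell" are used for called genes alone. CPM are on 1 scale for all 18 libraries, log2 fold changes are followed by their standard error (SE), and levels of different genes are compared as TPM, which divides counts by exon length. Before the fits, 33 of the 41 genes passed the filter on low counts in HSC and 34 in HPC and in the joint fit. Itga7, Itga8, Itga11, Itgad, Itgb2l, Itgb8 and Cdh5 passed in neither population, with at most 11 counts or 0.578 CPM in any library, and Sele passed in HPC only. Of the 41 genes, 17 were called in at least 1 of the 6 genotype comparisons and 26 reached a mean of 5 CPM in some group. The share of all genes called in at least 1 of the 6 was not computed, so the 17 have no background here.

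Promoters are shown for 4 alpha subunit genes called in HPC hom, because 2 of them, Itgax and Itga4, hold the core motif of RUNX factors near the start site and the other 2, Itga2b and Itgam, are abundant alpha subunits that changed in both het and hom. Of the 41 genes, 25 were matched by symbol in the RefSeq promoter table (GRCm38.p6, 250 bases before to 50 after each start). Itga2b lies on the minus strand at chr11:102453297-102469883, Itgam and Itgax lie on the plus strand of the same chromosome at chr7:128062640-128118491 and chr7:128129526-128150657, and Itga4 lies on the plus strand at chr2:79255426-79333114. The sequences below run 5′ to 3′ on the gene's strand from 250 bases before to 20 bases after the start, over chr11:102469864-102470133, chr7:128062390-128062659, chr7:128129300-128129569 and chr2:79255176-79255445 in that order. Capitals mark every match on either strand to 1 of 3 motifs: TGTGGT for RUNX factors, GAGGAA for PU.1 and other factors of the ETS family, and AGATAA for the GATA family. The matches do not overlap each other in these windows.
Itga2b: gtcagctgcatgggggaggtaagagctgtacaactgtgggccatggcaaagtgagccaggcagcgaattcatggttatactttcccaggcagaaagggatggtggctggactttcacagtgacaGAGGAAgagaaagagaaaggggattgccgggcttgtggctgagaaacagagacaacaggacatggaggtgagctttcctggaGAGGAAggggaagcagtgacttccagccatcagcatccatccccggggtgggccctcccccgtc
Itgam: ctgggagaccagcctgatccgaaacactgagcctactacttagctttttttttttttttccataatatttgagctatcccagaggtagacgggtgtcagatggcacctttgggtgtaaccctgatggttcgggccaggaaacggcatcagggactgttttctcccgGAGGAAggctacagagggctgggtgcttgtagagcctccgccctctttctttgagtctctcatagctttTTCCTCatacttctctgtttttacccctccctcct
Itgax: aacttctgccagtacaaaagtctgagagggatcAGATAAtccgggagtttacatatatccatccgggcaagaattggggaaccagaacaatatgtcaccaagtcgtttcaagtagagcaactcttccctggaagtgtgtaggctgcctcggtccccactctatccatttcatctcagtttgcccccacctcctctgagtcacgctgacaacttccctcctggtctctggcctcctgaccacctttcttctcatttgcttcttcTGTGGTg
Itga4: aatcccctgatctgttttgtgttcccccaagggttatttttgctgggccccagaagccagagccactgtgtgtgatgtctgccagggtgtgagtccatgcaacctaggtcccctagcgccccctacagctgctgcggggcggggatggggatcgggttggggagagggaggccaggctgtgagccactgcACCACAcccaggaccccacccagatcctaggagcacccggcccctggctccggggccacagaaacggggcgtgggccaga
The 25 genes have 27 windows of 300 bases in the table. The RUNX letters were present in 3 of the 27 (11.1%; Itga3, Itga4 and Itgax) and in 16.8% of all 32851 windows. They began 60 bases before the start in Itga4, as the reverse complement ACCACA, and 14 bases into the transcript in Itgax. The PU.1 and ETS letters were present in 14 of the 27 (51.9%) and in 28.3% of all windows, and those of the other family in 2 of the 27 (7.41%) and in 11.2% of all windows. Positions count from the start in the promoter table, which for Itgax lies inside the gene's span in the files. A match is a description of the letters, not a measured binding site.

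WT HSC and WT HPC differed in most of the adhesion transcripts tested. Of 34 genes tested, 12 were higher and 17 lower in HSC, 29 in all, against 54.9% of all 15431 genes tested (27.7% higher and 27.2% lower). The median log2 difference was -0.15 over the 34 genes and 0.03 over all genes. This comparison joins cell type with donor sex, and these cannot be told apart. All 41 genes are autosomal, which does not separate them. In TPM, the alpha subunits of WT HSC were led by Itga6 at 121 ± 4.98, Itga2b at 99.2 ± 5.88 and Itga4 at 97.2 ± 4.2 (SD, n = 3), the first the laminin receptor subunit and the last the alpha 4 subunit. Itga2b and Itga4 do not differ beyond their spread in that order. In WT HPC, Itga2b led at 247 ± 26.8 TPM, followed by Itgal at 146 ± 14.2, Itga6 at 144 ± 11.2 and Itga4 at 139 ± 14.5, 3 values within their spread. Itgb1, the common partner of many alpha subunits, had the highest TPM of all beta subunits in both, at 287 ± 3.72 in HSC and 299 ± 12.6 in HPC.

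**Figure D1:**
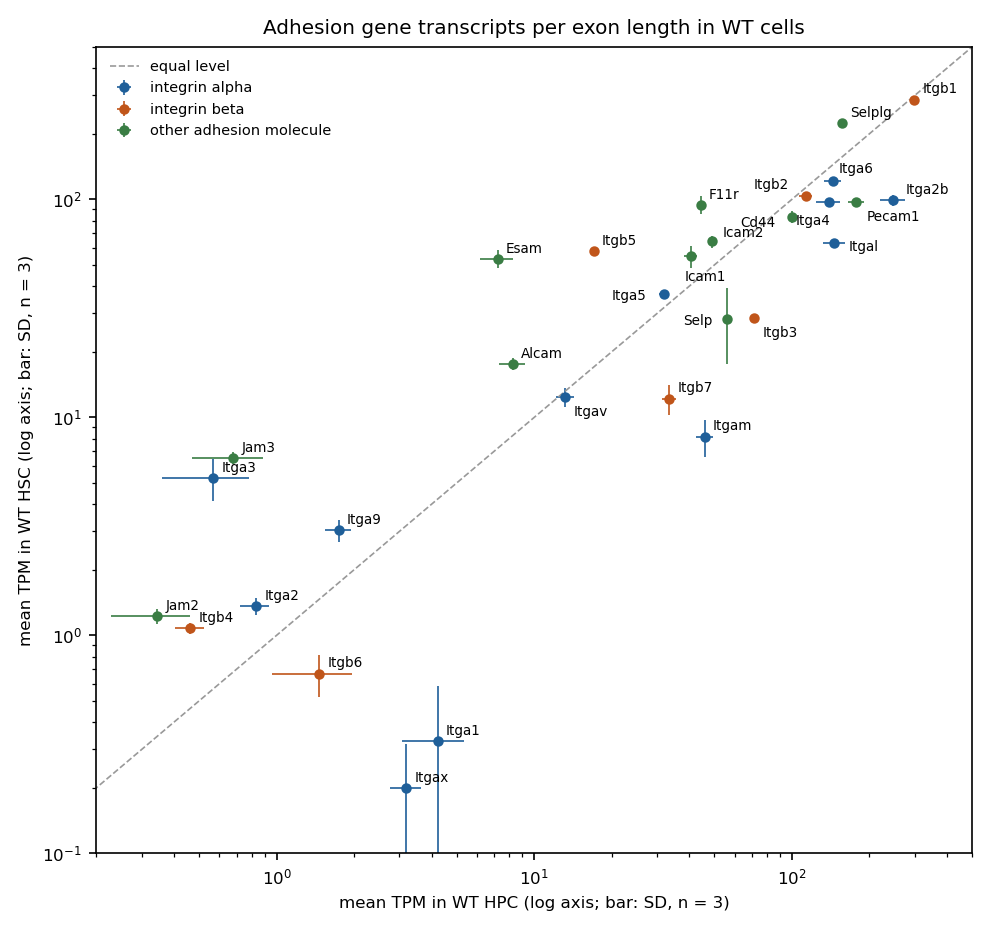
Mean TPM of the adhesion genes in WT HSC (vertical) against WT HPC (horizontal), both log axes, for genes of at least 1 TPM in either, with bars for the SD of 3 libraries (the lower bars of Itga1 and Itgax run past the axis) and the dashed line at equal levels. Esam, Itgb5, Alcam, Jam3 and Itga3 lie above the line and Itgam, Itgb7, Itgax and Itga1 below it, while Itgb1 lies near it at 287 TPM in HSC and 299 TPM in HPC.

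The genes higher in WT HSC included junctional and matrix receptors. Esam, an endothelial and stem cell junction molecule, was at 34.6, 32.2 and 39.6 CPM in HSC and 4.67, 5.58 and 5.72 in HPC (log2 2.73, SE 0.15, adjusted p = 1.22e-12). Jam3, a junctional adhesion molecule, was at 12.3, 13.4 and 14 CPM in HSC and 1.04, 1.79 and 1.73 in HPC (log2 3.12), and its relative Jam2 at 2.10 to 2.43 and 0.449 to 0.891 CPM (log2 1.67). Itga3, a laminin receptor subunit, was at 7.52, 11.1 and 11.5 CPM against 1.14, 1.69 and 0.797 (log2 3.06). Itgb5, which pairs with alpha V to bind vitronectin, was at 71.6, 72.7 and 70.7 CPM against 24.3, 23.3 and 22.8 (log2 1.61, SE 0.07, adjusted p = 4.78e-14). For all 5 genes the HSC values lay above every HPC value. Smaller differences in the same direction were called for F11r (JAM-A, log2 0.94), Alcam (0.94), Itgb4 (1.06), Itga9 (0.65), Selplg (0.36), Icam1 (0.28) and Icam2 (0.23), the last 2 being ligands of the beta 2 integrins.

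The genes higher in WT HPC included myeloid and platelet integrins. Itgam, the alpha M chain (CD11b) of complement receptor 3, was at 10.7, 15.7 and 14.4 CPM in HSC and 84.6, 92.4 and 78.8 in HPC (log2 -2.64, SE 0.14). Itgax, the alpha X chain (CD11c), was at 0.102, 0.411 and 0.441 CPM against 5.27, 6.48 and 5.20 (log2 -4.07), and Itga1, a collagen receptor subunit, at 0.205, 1.27 and 0.602 against 7.26, 11.2 and 11.4 (log2 -3.78). Itga2b and Itgb3, the alpha IIb and beta 3 chains of the platelet fibrinogen receptor, differed by log2 -1.47 (SE 0.14) and -1.48 (SE 0.14). Itgb7, which pairs with alpha 4 or alpha E, differed by -1.61 and Itgal, the alpha L chain of LFA-1, by -1.35. Pecam1 differed by -1.03, Selp (P-selectin) by -1.14, Itgb6 by -1.28, Itga4 by -0.67, Cd44 by -0.43, Itga6 by -0.40, Itgb2 by -0.28, Itgav by -0.24 and Itgb1 by -0.21. Sele (E-selectin) had 0, 0.123 and 0 CPM in HSC and 0.349 to 0.469 in HPC, all low levels. Its call is counted among those lower in HSC, but it passed the filter on low counts through HPC het and hom libraries. When the WT groups were fitted alone it was not tested. The values of Itga5, Itga10, Itgae, Vcam1 and Itga2 did not pass the test, with Itga5 at 57.7 to 60.5 CPM in HSC and 53.6 to 59.5 in HPC (95% interval of the log2 difference -0.08 to 0.19). Itga2 was at 3.17 to 3.74 CPM in HSC and 2.14 to 2.53 in HPC (log2 0.55, adjusted p = 0.0615). It was called with upper-quartile factors and with only the groups compared. Among the smallest differences, the calls of Itgb1 (adjusted p = 0.0795) and Itgav (0.144) ended with upper-quartile scaling and that of Icam2 (0.0924) without a filter on low counts. Single libraries ended 4 calls: adjusted p was 0.0804 to 0.115 for Itgav without HSC WT 1, HSC WT 3 or HPC WT 2, 0.0681 to 0.131 for Icam2 without HSC WT 1, HPC WT 2 or HPC WT 3, 0.0505 to 0.134 for Icam1 without HSC WT 2, HPC WT 1 or HPC WT 3, and 0.0501 and 0.0872 for Jam2 without HSC WT 2 or HPC WT 2.

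In HPC, loss of Runx2 went with more Itgam and Itga9 and less Itga2b and Esam. Of 34 genes tested in hom against WT, 8 rose and 5 fell, 13 in all, against 9.21% of all 13855 genes tested (4.92% higher and 4.29% lower). In het against WT, 8 rose and 2 fell, 10 in all, against 16.1% of all genes (9.15% higher and 6.99% lower). The median log2 change over the 34 genes was 0.03 in hom and 0.16 in het, with -0.00 over all genes in both. The 2 comparisons share the 3 WT libraries. Both called Itga9, Itgam, Itgb5, Cd44, Pecam1, Itga2b and Esam, 7 genes, which is 7 of the 13 called in hom and 7 of the 10 called in het. The matching overlap over all genes was not computed, so this count is not a result about these genes as a set. In bulk RNA, more cells of a type and more RNA per cell cannot be told apart.

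The beta 2 partners went different ways. Itgam was at 84.6, 92.4 and 78.8 CPM in WT, 189, 193 and 170 in het and 149, 139 and 141 in hom. No 2 of the 3 groups overlapped, and het was the highest. It rose 2.16-fold in het (log2 1.11, SE 0.07, adjusted p = 1.32e-08) and 1.68-fold in hom (log2 0.75, SE 0.07, adjusted p = 7.83e-07). Itgax was at 5.27, 6.48 and 5.20 CPM in WT, 6.58, 8.20 and 6.57 in het and 2.85, 3.86 and 3.72 in hom, so that hom lay below both other groups. It fell in hom (log2 -0.69, SE 0.17, adjusted p = 0.0146) and did not pass in het (log2 0.33). Itgal was at 297, 333 and 324 CPM in WT, 337, 356 and 301 in het and 371, 373 and 337 in hom, and did not pass in either. Itgb2, the shared beta chain, was at 131 to 136 CPM in WT, 131 to 153 in het and 135 to 152 in hom, and did not pass either. As a share of summed alpha subunit TPM, Itgam was 5.92% ± 0.571 for WT, 13.3% ± 0.123 for het and 9.83% ± 0.79 for hom libraries (SD, n = 3).

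The platelet receptor changed in 1 chain and not detectably in the other. Itga2b was at 332, 314 and 363 CPM in WT, 167, 201 and 178 in het and 191, 268 and 226 in hom, with every WT library above every het and hom library. It fell by 0.88 on the log2 scale in het (SE 0.11, adjusted p = 7.12e-05) and by 0.55 in hom (SE 0.10, adjusted p = 0.00369). Its share of summed alpha subunit TPM was 31.8% ± 1.99 for WT, 18% ± 1.5 for het and 21.3% ± 2.75 for hom libraries (SD, n = 3). Itgb3 was at 180, 166 and 163 CPM in WT, 157, 213 and 165 in het and 148, 197 and 185 in hom, 3 overlapping groups (95% interval of the log2 difference -0.16 to 0.32 in het and -0.18 to 0.30 in hom).

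**Figure D2:**
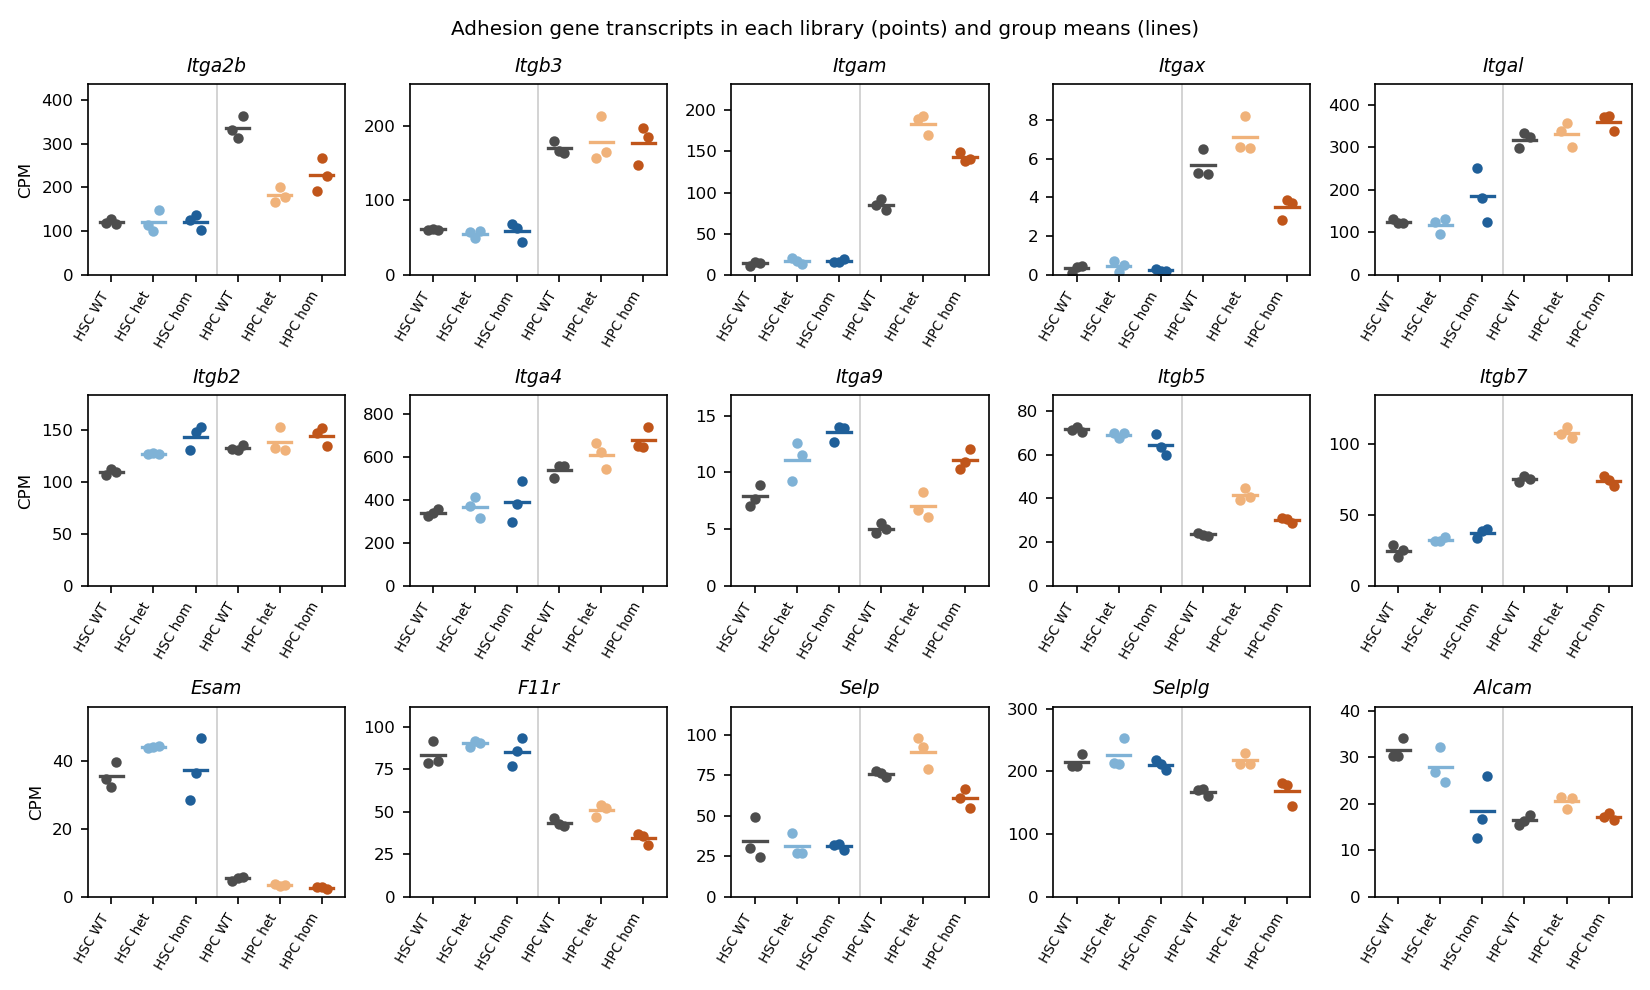
CPM of 15 adhesion genes in each library (points) with the mean of 3 libraries (lines) for the 6 groups, each panel with its own axis from 0. In HPC, Itgam is highest in het, Itga2b is highest in WT and Itgb3 overlaps between genotypes, while the 3 HSC hom points of Itgal spread from 123 to 252 CPM.

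The alpha 4, alpha 9 and beta 7 subunits share ligands such as VCAM1 and fibronectin. Itga9 was at 4.62, 5.53 and 4.97 CPM in WT, 6.64, 8.26 and 6.10 in het and 10.3, 10.9 and 12.1 in hom, 3 groups in ascending order without overlap. It rose 2.2-fold in hom (log2 1.14, SE 0.14, adjusted p = 2.3e-05) and 1.39-fold in het (log2 0.47, SE 0.15, adjusted p = 0.0363). Itga4 was at 501, 559 and 560 CPM in WT, 667, 621 and 543 in het and 651, 646 and 739 in hom, and it rose in hom (log2 0.33, SE 0.08, adjusted p = 0.0127) and did not pass in het (log2 0.18, adjusted p = 0.153). The het difference of Itga4 was called without het 3. Itgb7 was at 73.3, 77.6 and 75.6 CPM in WT, 107, 112 and 104 in het and 77.7, 74.6 and 70.1 in hom. Het stood apart from the other groups (log2 0.51, SE 0.06, adjusted p = 1.11e-05), while hom and WT overlapped (95% interval -0.14 to 0.10). Itgb5 followed a similar order, with 24.3, 23.3 and 22.8 CPM in WT, 39.3, 44.8 and 40.7 in het and 30.9, 30.5 and 28.7 in hom. It rose 1.77-fold in het (log2 0.83, SE 0.08, adjusted p = 6.07e-07) and 1.28-fold in hom (log2 0.36, SE 0.08, adjusted p = 0.00471), and the 3 groups did not overlap.

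The other integrin subunits gave no call in HPC against WT. Itga5, the fibronectin receptor subunit, was at 51.4 to 59.5 CPM in all 9 HPC libraries, Itga6 at 332 to 365, Itgav at 45.8 to 56.5 and Itgb1 at 475 to 532. Itga1 was at 7.26 to 11.4 CPM in WT, 11.2 to 15.2 in het and 11 to 18.5 in hom (hom log2 0.59, adjusted p = 0.119), and DESeq2 and the fit without a filter on low counts called it higher in hom, as did the fit without hom 2. In het it was called without a filter on low counts (log2 0.43 and adjusted p = 0.211 with the filter). Itga2, Itga3, Itga10, Itgae, Itgb4 and Itgb6 had group means under 5 CPM in HPC, and edgeR called none in the fit of 9 libraries. Itga3 was called lower in hom than in het without a filter on low counts (log2 -1.18, adjusted p = 0.0715 in the fit of 9 libraries), and Itgb6 was called in het against WT without WT 2.

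**Figure D3:**
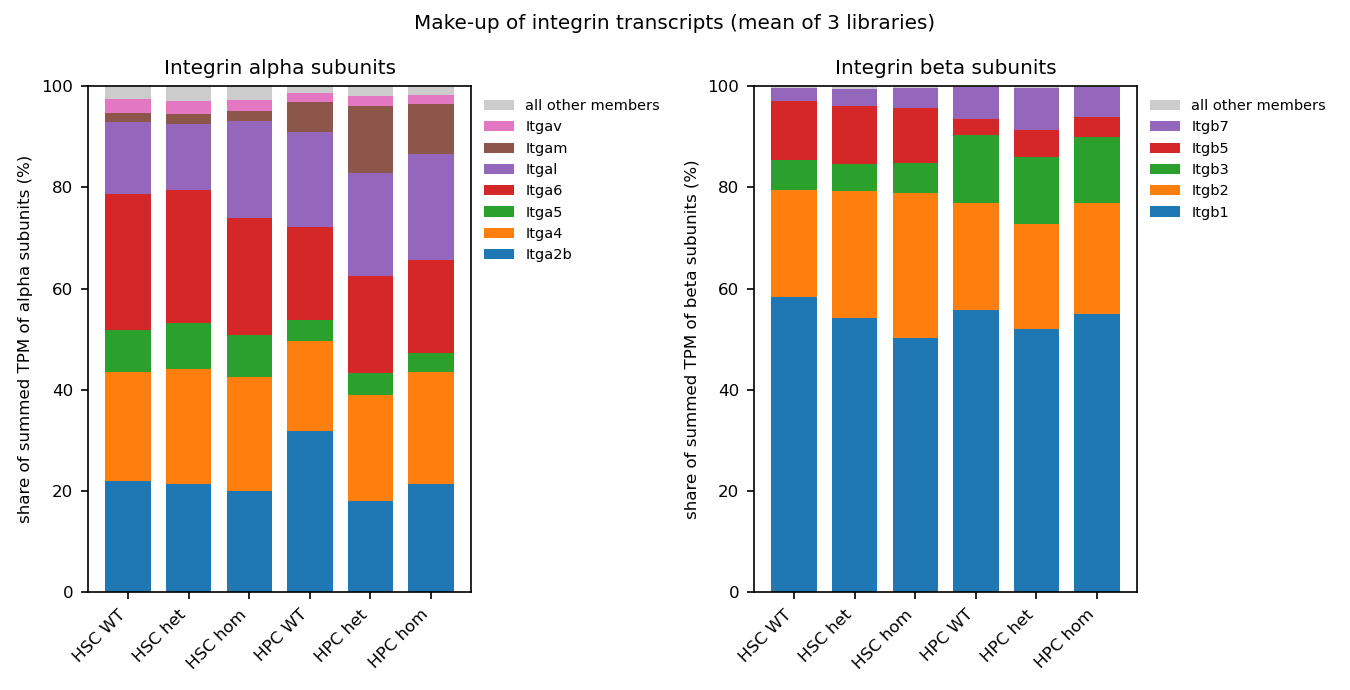
Mean share of each subunit in the summed TPM of alpha subunits (left) and beta subunits (right), as stacked bars for the 6 groups (3 libraries each), with the least abundant subunits pooled in grey. In HPC the Itga2b share is 31.8% in WT, 18% in het and 21.3% in hom, and the Itgam share is 5.92%, 13.3% and 9.83%.

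The selectins and their ligands followed no single order of genotypes. Selp, the adhesion receptor of platelet granules and endothelium, was at 77.6, 76.4 and 74.2 CPM in WT, 97.9, 92.4 and 78.7 in het and 60.7, 66.7 and 54.5 in hom. It fell in hom (log2 -0.32, SE 0.08, adjusted p = 0.0166) and did not pass in het (log2 0.24, adjusted p = 0.0545). The het difference was called higher with upper-quartile factors, without a filter on low counts, with only the groups compared and without het 3. Selplg, which encodes the selectin ligand PSGL-1, was at 171, 172 and 160 CPM in WT, 212, 229 and 212 in het and 182, 178 and 145 in hom. It rose in het (log2 0.38, SE 0.07, adjusted p = 0.00149), while hom and WT overlapped. Cd44, the hyaluronan receptor, was at 235, 229 and 221 CPM in WT, 259, 273 and 273 in het and 268, 268 and 273 in hom, and rose in both by a log2 of 0.24. Sele rose in hom from 0.349 to 0.469 CPM in WT to 0.742, 1.41 and 2.11 CPM (log2 1.81, SE 0.48, adjusted p = 0.0209), a level near the floor. No WT library exceeded 0.469 CPM, and Sele passed the filter on low counts through het and hom libraries. Its call, counted among those that rose, therefore rests on a gene kept by the groups where it was high. With a filter of at least 1 CPM in 3 libraries it was not tested. Selp and Sele share 12.7% and 13.7% of their exon bases with a gene on the opposite strand, as Itgb4 and Itga4 do with 9.31% and 1.69%, and the counts do not use strand.

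The junctional and immunoglobulin-family molecules moved less uniformly. Esam was at 4.67, 5.58 and 5.72 CPM in WT, 3.83, 3.13 and 3.36 in het and 2.68, 2.76 and 2.26 in hom, 3 descending groups without overlap. It fell to 48.3% of the WT mean in hom (log2 -1.05, SE 0.18, adjusted p = 0.000676) and to 64.6% in het (log2 -0.63, SE 0.18, adjusted p = 0.0188). F11r was at 46.3, 42.6 and 41.8 CPM in WT, 46.7, 53.8 and 52 in het and 36.8, 36 and 30.2 in hom, and fell in hom (log2 -0.34, SE 0.08, adjusted p = 0.0118). In het it did not pass (log2 0.23, adjusted p = 0.0648), though the fit of only the groups compared called it. Pecam1, a homophilic adhesion molecule of leukocytes and endothelium, was at 228, 248 and 229 CPM in WT, 276, 291 and 280 in het and 283, 275 and 272 in hom, and rose in both (log2 0.27 and 0.24). Alcam, the CD6 ligand, was at 15.4, 16.3 and 17.6 CPM in WT, 21.4, 18.8 and 21.3 in het and 17.1, 17.9 and 16.5 in hom, and rose in het (log2 0.32, SE 0.09, adjusted p = 0.0246). Vcam1, the alpha 4 integrin ligand, rose in hom from 0.298, 0.947 and 0.610 CPM to 1.31, 1.67 and 1.91 CPM (log2 1.40, SE 0.37, adjusted p = 0.0212). Icam1 at 33.7 to 44.8 CPM and Icam2 at 29.6 to 35.5 CPM in all 9 HPC libraries, and Jam2 and Jam3 at most 1.79 CPM, did not pass.

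**Figure D4:**
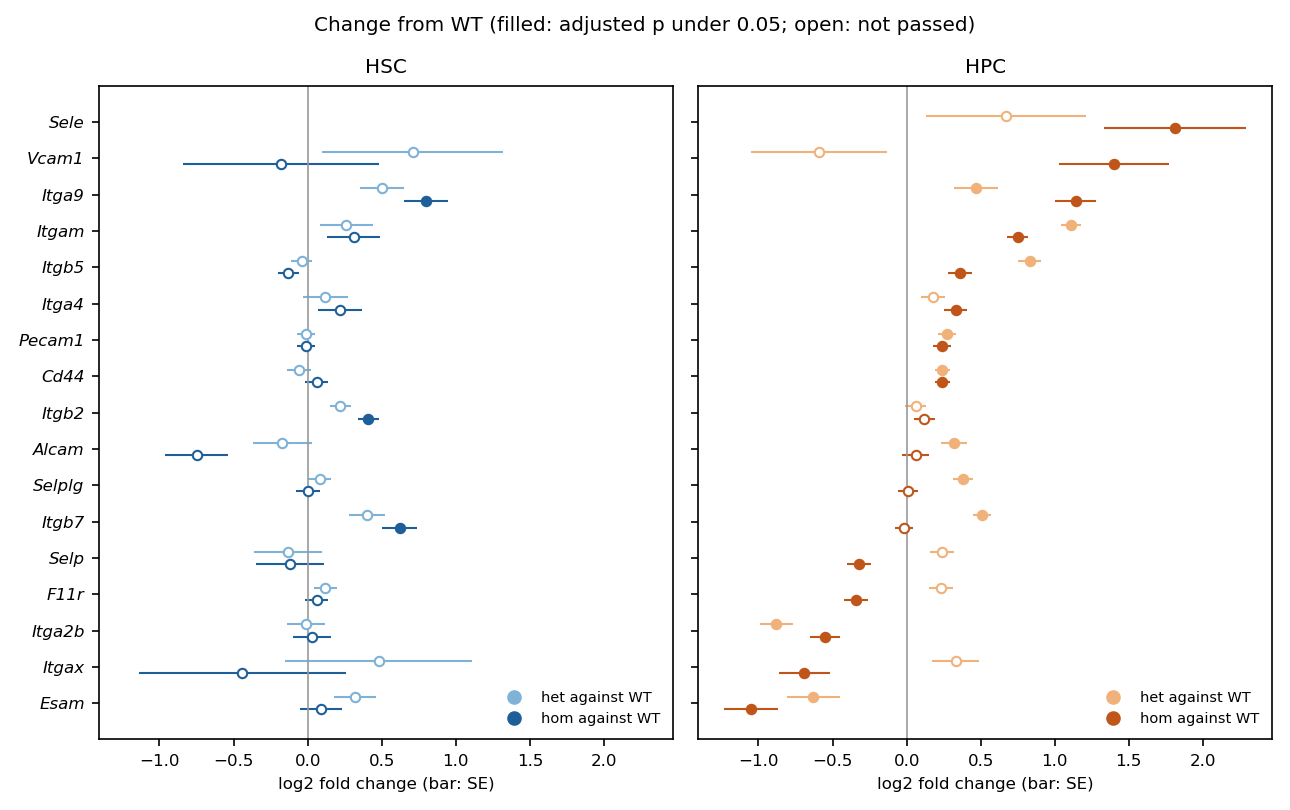
Log2 fold change from WT with its standard error for the 17 genes called in a genotype comparison, in HSC (left) and HPC (right), for het and hom, filled where the adjusted p was under 0.05 and open otherwise. In HPC, Itgam, Itgb5, Itgb7, Selplg and Selp lie further right in het than in hom and Itga9 further right in hom, while in HSC the filled points are Itgb2, Itgb7 and Itga9 in hom.

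The direct comparison of hom with het in HPC called 9 of 34 genes, 2 higher and 7 lower in hom, against 9.4% of all genes tested (3.63% higher and 5.77% lower). The median was -0.02 over the 34 genes and 0.00 over all genes. Itga9 (log2 0.67, SE 0.14, adjusted p = 0.00485) and Vcam1 (log2 1.99, SE 0.41, adjusted p = 0.00485) were higher in hom. Itgax (-1.02), F11r (-0.57), Selp (-0.56), Itgb7 (-0.54), Itgb5 (-0.47), Selplg (-0.37) and Itgam (-0.36) were lower in hom, with adjusted p from 3.15e-05 to 0.00399. For Itga2b the hom-against-het difference did not pass (log2 0.33, adjusted p = 0.0706), although DESeq2 called it, as did edgeR without hom 1 or with no filter on low counts. Esam, called in neither direction here, was at 3.13 to 3.83 CPM in het and 2.26 to 2.76 in hom. Among the genes called against WT, the het mean lay between WT and hom for Itga9, Esam, Itga4 and Sele, and was nearly equal to hom for Cd44. It was further from WT than the hom mean for Itgam, Itgb5, Itgb7, Selplg, Itga2b, Alcam and Pecam1. Het and hom lay on opposite sides of WT for Selp, F11r, Itgax and Vcam1. They did so for Itgb7 too, at means of 108 and 74.2 CPM against 75.5 in WT, although its hom and WT libraries overlapped. These orders are descriptions of means, and the tests of hom against het are those given above.

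Lineage markers moved with genotype in HPC, where 16.1% of all genes were called in het and 9.21% in hom. A single call among at most 4 tested markers cannot be told apart from these shares. Of 8 monocyte and macrophage markers, all 8 rose in het and in hom, and their summed level was 373 to 412 CPM in WT, 674 to 683 in het and 687 to 780 in hom. Of 10 neutrophil granule markers, 4 rose in het and 8 in hom, with sums of 1634 to 1731, 2039 to 2461 and 2680 to 2865 CPM. Of 10 megakaryocyte markers, 4 fell in het (Pf4, Gp1bb, Gp5 and Gp9) and 1 in hom, with sums of 370 to 403, 244 to 319 and 282 to 403 CPM. Of 7 dendritic cell markers, 4 fell in hom and 1 rose in het, with sums of 64.8 to 66.4, 55.9 to 82.5 and 32.2 to 43.3 CPM and Xcr1 at 0 in every group. None of the other markers named in these 4 lists was at 0 throughout a HPC group. Of the other lists, 2 of 8 stem cell markers rose and 4 fell in hom, and 1 rose and 2 fell in het, with sums of 192 to 212, 234 to 265 and 208 to 218 CPM. In hom, all 3 tested eosinophil markers rose, 3 of 6 tested mast cell and basophil markers rose and 2 fell, 1 of 4 tested T cell markers rose and 3 fell, 1 of 4 tested erythroid markers rose and the 1 tested stromal marker fell. In het, 2 eosinophil markers rose, 2 mast cell and basophil markers rose and 2 fell, 1 T cell marker rose and 2 fell, 1 erythroid marker fell and 1 B cell marker rose. The part of these cell types in the results was not tested. Slamf1, a marker that the HPC sort gates against, also fell, from 9.42 to 12.9 CPM in WT to 3.19 to 4.19 in het and 4.8 to 8.18 in hom. The 7 endothelial markers summed to 219 to 225 CPM in WT, 231 to 264 in het and 197 to 231 in hom, with 1 higher and 3 lower in het and 1 higher and 2 lower in hom. Among them Cldn5 was at 0 in every group, and Cdh5, an endothelial cadherin and 1 of the 41 genes, was at most 0.295 CPM in HPC.

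Several HPC calls ended under other settings or without single libraries, among them the calls with the largest log2 changes, those of Sele and Vcam1. With all 18 libraries in 1 fit, the hom calls of Itga4 (adjusted p = 0.211), Itgax (0.193), Vcam1 (0.156), Sele (0.106) and Selp (0.457) ended, as did the het calls of Alcam (0.302) and Itga9 (0.0656) and the hom-against-het calls of Itgam (0.0977), Vcam1 (0.05) and Selp (0.124). Itga9 in het also missed with DESeq2 (0.0582) and with only the groups compared (0.0504). In hom against WT, calls ended with an adjusted p of 0.0606 and 0.0629 for Itga4 without WT 1 or hom 3, 0.0511 to 0.0614 for Pecam1 without WT 1, WT 3 or hom 1, 0.0697 and 0.0922 for Itgax without hom 1 or WT 2, 0.0602 and 0.0717 for Selp without WT 2 or hom 3, and 0.0586 for F11r without hom 3. Sele missed without any 1 WT library or hom 3 (0.0546 to 0.122) and Vcam1 without WT 1, WT 3, hom 2 or hom 3 (0.0559 to 0.116). In het against WT, Itga9 missed without WT 1, WT 3, het 1 or het 2 (0.061 to 0.197), Alcam without WT 1, WT 2, het 1 or het 3 (0.0697 to 0.112) and Esam without WT 2, WT 3, het 2 or het 3 (0.0566 to 0.0798). No library left out ended the calls of Itgam, Itga2b, Itgb5 or Cd44 in either comparison, of Itga9 or Esam in hom, or of Itgb7, Selplg or Pecam1 in het.

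In HSC, 3 integrin genes rose in hom and none fell. The common dispersion, an estimate of the spread between libraries, was 0.0128 in the HSC fit and 0.00483 in the HPC fit. Counts of calls in the 2 populations are therefore not a comparison of effect sizes. The 3 of 33 tested compare with 2.01% of all 14959 genes called (1.2% higher and 0.802% lower), and 9 of 33 had an unadjusted p under 0.05. The median log2 change was -0.01 over the 33 genes and 0.00 over all genes. Itgb2 was at 107, 113 and 110 CPM in WT, 127, 128 and 127 in het and 131, 148 and 153 in hom, 3 ascending groups without overlap. It rose 1.31-fold in hom (log2 0.41, SE 0.07, adjusted p = 0.00989). Itgb7 was at 28.5, 20.5 and 25.4 CPM in WT, 31.7, 31.3 and 34.3 in het and 34, 38.7 and 39.7 in hom, with WT below both other groups, and rose 1.51-fold in hom (log2 0.62, SE 0.12, adjusted p = 0.0156). Itga9 was at 7.06, 7.69 and 8.91 CPM in WT, 9.25, 12.6 and 11.5 in het and 12.7, 14 and 13.9 in hom, again without overlap, and rose 1.72-fold (log2 0.80, SE 0.15, adjusted p = 0.0165). As a share of summed beta subunit TPM, Itgb2 was 21.1% ± 0.476 in WT, 25% ± 0.143 in het and 28.7% ± 1.23 in hom, and Itgb1 58.4% ± 0.192, 54.2% ± 1.19 and 50.2% ± 1.25 (SD, n = 3). These shares are descriptions without a test.

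Leaving out single libraries ended these HSC calls. Itgb2 missed without WT 1 (adjusted p = 0.0635), WT 2 (0.0504) or hom 2 (0.0658), Itga9 without WT 1 (0.0815), WT 2 (0.0906) or hom 2 (0.0817) and Itgb7 without WT 2 (0.0868), WT 3 (0.0562) or hom 2 (0.0817), with log2 changes of 0.39 to 0.78. In HSC hom, the called markers were Ccr2 (1 of 7 tested monocyte markers, log2 -1.84), H2-Aa and H2-Eb1 (2 of 4 tested dendritic cell markers, log2 -1.51 and -2.09) and Thy1 (1 of 3 tested T cell markers, log2 -0.75), which fell, and Egfl7 (1 of 6 tested endothelial markers, log2 0.44), which rose. The share of all genes called there was 2.01%. The monocyte marker sum was 185 to 199 CPM in HSC WT and 180 to 206 in hom, and the neutrophil granule sum 63.9 to 77.2 and 70.8 to 93.8 CPM. S100a9 and Fcnb were at 0 in HSC WT, S100a8, S100a9 and Fcnb in HSC het, and S100a8 and S100a9 in HSC hom. The stem cell marker sum was 645 to 754 CPM in WT, and 544, 716 and 1011 CPM in hom 1, 2 and 3. The part of these markers in the results was not tested.

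The HSC hom libraries differed among themselves for several of these genes. Itgal was at 130, 121 and 122 CPM in WT and 252, 181 and 123 in hom (log2 0.60, adjusted p = 0.213). Itga4 was at 325, 337 and 358 CPM in WT and 298, 381 and 486 in hom, Esam at 34.6, 32.2 and 39.6 in WT and 28.4, 36.3 and 46.6 in hom, and Alcam at 30.3, 30.3 and 34.1 in WT and 12.7, 16.6 and 25.9 in hom (log2 -0.75, adjusted p = 0.0856). Hom 1 had the highest Itgal and the lowest Itga4, Esam and Alcam of the 3, and hom 3 the reverse. The fit without a filter on low counts called Itgal higher and Alcam and Itgb1 lower in hom, and DESeq2 and the fit of all 18 libraries called Alcam and Itgb1. Itgb1 was at 424, 430 and 432 CPM in WT, 382, 402 and 382 in het and 334, 356 and 373 in hom, 3 descending groups without overlap (hom log2 -0.25, adjusted p = 0.0732).

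No gene was called in HSC het against WT, where 6 of 33 had an unadjusted p under 0.05 and 0.0334% of all genes were called. The median log2 change was 0.12 over the 33 genes and 0.01 over all. DESeq2 called 0 of the 33 and 200 of all genes. The fits without a filter and with all 18 libraries called Itgb7 alone of these genes, and 399 and 263 of all genes. None was called in HSC hom against het either, where 5 of 33 had an unadjusted p under 0.05. The edgeR fit called 0.0134% of all genes there, with medians of -0.09 and 0.00. DESeq2 called 0 of the 33 and 155 of all genes. The HSC groups did not overlap for 8 of 33 genes in hom against WT (24.2%, and 25% of all genes) and for 9 of 33 in het against WT (27.3%, and 23.2% of all genes), shares near the background.

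The remaining HSC levels showed no call for genotype in the fit of 9 libraries. Itga2b was at 99.5 to 147 CPM in all 9 HSC libraries, Itgb3 at 44.1 to 68.6, Itga5 at 57.7 to 70.9, Itga6 at 212 to 295, Itgav at 33.2 to 44.4 and Itgb5 at 59.8 to 72.7. Selplg was at 202 to 253 CPM, Cd44 at 152 to 186, Pecam1 at 107 to 117, F11r at 77 to 93.4, Icam1 at 41.8 to 57.1, Icam2 at 34.6 to 44.6 and Selp at 24.6 to 48.9. Itgam was at 10.7 to 19.7 CPM, Itga3 at 7.52 to 13 and Jam3 at 7.22 to 17. Jam3 was called in hom against het without hom 3 (log2 -0.48, adjusted p = 0.333 in the fit of 9 libraries). Itga1, Itgax, Vcam1 and Sele were at most 1.37 CPM in any HSC library, and Itga2, Itga10, Itgae, Itgb4, Itgb6 and Jam2 at most 4.02 CPM.

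Whether the genotype effect differed between the populations was tested in the joint fit. For hom, 4 of 34 genes passed, against 2.79% of all genes. The HSC effect minus the HPC effect was 1.12 for Esam (SE 0.23, adjusted p = 0.00975), 0.63 for Itgb7 (SE 0.13, adjusted p = 0.00956), -0.51 for Itgb5 (SE 0.10, adjusted p = 0.00904) and -0.32 for Itgb1 (SE 0.09, adjusted p = 0.0484). For het, 4 of 34 passed, against 1.94% of all genes. The differences were 0.94 for Esam (SE 0.22, adjusted p = 0.0251), 0.87 for Itga2b (SE 0.20, adjusted p = 0.0281), -0.87 for Itgb5 (SE 0.10, adjusted p = 2.26e-05) and -0.87 for Itgam (SE 0.19, adjusted p = 0.0186). Esam fell in HPC and was at 28.4 to 46.6 CPM in HSC hom against 32.2 to 39.6 in HSC WT, and Itgb7 rose in hom in HSC with no call in HPC hom. Itgb5 rose in HPC het and hom and was at 59.8 to 72.7 CPM in all HSC libraries. The hom call of Itgb1 ended in 17 of 19 alternatives (adjusted p = 0.0545 to 0.178), including every fit that left out 1 library other than HSC hom 3. In het, the call of Itga2b ended without HSC WT 1 or 3, HSC het 3, HPC WT 1 or 3, or HPC het 1 or 3 (0.0601 to 0.087). That of Esam ended without HSC WT 1 or 2, HSC het 3, HPC WT 2 or 3, or HPC het 2 or 3 (0.0515 to 0.0852), and that of Itgam without HSC WT 2 or 3 or HPC WT 3 (0.0598 to 0.0701). The Itga9 rise in hom was called in both populations, and its difference did not pass. The populations differ in donor sex, so these differences carry that factor too.

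Of 4 lists of genes that work with these molecules, the list of selectin ligands and their enzymes was the one with calls in both populations. In HSC hom, 2 of its 18 tested genes were called. Podxl, a sialomucin that can carry selectin ligands, was at 211, 195 and 231 CPM in HSC WT, 181, 170 and 176 in het and 149, 154 and 153 in hom (hom log2 -0.46, SE 0.07, adjusted p = 0.00618). In HPC it was at 250, 224 and 255 CPM in WT, 89.9, 103 and 97.5 in het and 100, 149 and 127 in hom (hom log2 -0.95, and het log2 -1.32). In HPC hom, 6 of 18 were called, 4 higher and 2 lower, and the risers included B3gnt2 (log2 0.30), a glycan-extending enzyme, and Tpst1 (log2 0.46), which sulfates tyrosines of PSGL-1. In HPC het, 5 of 18 were called, 4 higher and 1 lower. The called shares were 11.1% in HSC hom, 33.3% in HPC hom and 27.8% in HPC het, against 2.01%, 9.21% and 16.1% of all genes. The median log2 change of the list was 0.07 in HSC hom and 0.03 in HPC hom, against 0.00 and -0.00 over all genes.

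The intracellular adaptors and activators of integrins were called at a share near that of all genes in HPC, 6.67% in hom (all genes 9.21%) and 16.7% in het (all genes 16.1%). In HSC hom, 0 of 31 were called by edgeR (10 at an unadjusted p under 0.05), and in HPC hom 2 of 30 rose, Arhgap15 (log2 0.42, adjusted p = 0.000241) and Cyth1 (log2 0.35, adjusted p = 0.0013), regulators of Rac and Arf GTPases. In HPC het 4 rose and 1 fell. The medians were 0.02, -0.02 and 0.03 in HSC hom, HPC hom and HPC het. Of the extracellular ligands, 0 of 23 were called in HSC hom (4 at an unadjusted p under 0.05) and 4 of 20 fell in HPC hom: Col4a1 (log2 -0.28), Lama5 (-0.42), Lamb3 (-0.93) and Fn1 (-1.15). Fn1 encodes fibronectin, a ligand of alpha 4 and alpha 5 integrins, and was at 2.34, 2.49 and 4.5 CPM in HPC WT, 0.447, 0.767 and 0.788 in het and 1.26, 1.77 and 1.16 in hom. In het it fell further (log2 -2.20, adjusted p = 0.000185), and 4 ligands rose and 2 fell. The called shares of the ligands were 20% in HPC hom and 30% in HPC het, against 9.21% and 16.1% of all genes. The hom call of Fn1 ended without WT 3 (log2 -0.78, adjusted p = 0.187), hom 1 (0.0677) or hom 3 (0.0642), and that of Lamb3 with DESeq2 (0.0548) and without any 1 WT library, hom 1 or hom 3 (0.0623 to 0.0992). The call of Lama5 ended in the fit of 18 libraries (0.065) and without WT 3 (0.0626) or hom 1 (0.0534), and that of Col4a1 without WT 2 (0.06).

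Of the tetraspanins and membrane partners of integrins, 0 of 26 were called in HSC hom (2 at an unadjusted p under 0.05), while in HPC hom 3 of 29 rose and 3 fell and in HPC het 5 rose and 2 fell, which is 20.7% and 24.1% against 9.21% and 16.1% of all genes. Emb, an adhesion molecule related to basigin, was at 264, 280 and 253 CPM in HPC WT, 500, 480 and 504 in het and 517, 455 and 429 in hom (hom log2 0.82, SE 0.07, adjusted p = 2.75e-07). The tetraspanin Cd53 rose in hom by a log2 of 0.46 and Pvr, a nectin-like receptor, by 0.53. Slc7a5, a light chain that pairs with the integrin-associated heavy chain Slc3a2, was at 298, 327 and 340 CPM in WT, 133, 163 and 141 in het and 210, 275 and 215 in hom. It fell by 1.14 on the log2 scale in het and by 0.46 in hom, and the hom call ended in the fit of 18 libraries (adjusted p = 0.0801) and without WT 3 (0.0511) or hom 3 (0.0531).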

How the data were processed

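Polyadenylated RNA was measured in 18 libraries, and 2 CUT&Tag samples are not used here. Per the submitters' processing notes, the authors used FastQC, Trim Galore 0.6.10, STAR 2.7.11a and featureCounts 2.0.6. The deposited values are raw counts of paired reads over exons by gene, without regard to strand, per the file headers. The notes name mm39 and the headers an mm10 annotation, and coordinates are given as in the files.

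Counts were fitted here with edgeR 4.0.16 (limma 3.58.1, R 4.3.3): quasi-likelihood F test, robust, TMM factors, genes kept by filterByExpr, Benjamini-Hochberg adjustment over all genes. Genotypes were compared in 1 fit of 9 libraries per cell type, and cell types in 1 fit of 18 libraries with the tables joined by gene. CPM use the TMM factors of the 18-library fit. TPM were computed here from counts and exon lengths without TMM factors. The fits were tested on simulated data. Alternatives were DESeq2 1.42.0, RLE and upper-quartile factors, other filters, other sets of libraries, a replicate block and leaving out each library. No 2 libraries agreed within sampling noise, the lowest chi-square per degree of freedom between replicates being 4.61.

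The genes and lists were chosen with earlier results of these data known. All 41 genes were accounted for: those called in any of 9 comparisons by library or by their log2 difference, others of at least 5 CPM by range, the rest by counts or upper limits. From each partner list, up to 4 called genes by p were named in each hom comparison. Some genes of these lists are counted but not reported here by name.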

Additional observations from a re-analysis of the deposited data

Results flagged for a closer look

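A genotype effect that differed between HSC and HPC by the test of the difference itself was found for 6 genes, given as the HSC log2 effect minus the HPC log2 effect. For hom against WT the values were -0.51 for Itgb5, 0.63 for Itgb7, 1.12 for Esam and -0.32 for Itgb1. For het against WT they were -0.87 for Itgb5, 0.87 for Itga2b, 0.94 for Esam and -0.87 for Itgam. In the hom comparison, the calls of Itgb5, Itgb7 and Esam were kept in every alternative run. No library left out ended the Itgb5 call in the het comparison, while single libraries ended the het calls of Itga2b, Esam and Itgam and the hom call of Itgb1.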

How the results depend on the processing

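Over the 72 results for named genes there were 1016 recomputed values, of which 917 kept direction and call, 99 kept direction but missed the threshold, and 0 reversed. Settings in which a gene was not tested are not among them. Sele had 13 recomputed values in HPC hom against WT and 11 in WT HSC against WT HPC, where Itgb5 had 14 and 13. Counts in brackets are over all genes, which moved as well. HSC hom against WT gave 6 without a filter (898), 5 with DESeq2 (748) and 5 with all 18 libraries in 1 fit (1064). With 1 library left out it gave 0 to 6 (48 to 638), against 3 (300). HSC het against WT gave 1 without a filter (399) and 1 with all 18 libraries (263), against 0 (5). HSC hom against het gave 2 without a filter (511) and 0 to 3 with 1 library left out (1 to 408), against 0 (2). HPC hom against WT gave 8 with all 18 libraries (784) and 8 to 13 with 1 library left out (871 to 1198), against 13 (1276). The hom effect between populations gave 8 without a filter (738) and 7 with DESeq2 (860), against 4 (431). The het effect gave 1 to 4 with 1 library left out (138 to 292), against 4 (300). The cause of these shifts was not tested. Fits with a library left out have fewer samples, and in HSC hom against WT the fit without HSC hom 3 called 6 against 3. Whether the replicate numbers pair the libraries cannot be told. The labels state no pairing, and 4 of 18 same-numbered pairs correlated above 0.1 (-0.17 to 0.219), without different-numbered pairs for comparison. With the replicate block, 3 genes were called in HSC hom, 0 in HSC het and 0 between these genotypes, then 13, 11 and 11 for the same comparisons in HPC, 29 for WT HSC against WT HPC, and 3 and 4 for the hom and het effects between populations. In the same order, the block called 189, 7 and 2 of all genes in HSC, 1348, 2342 and 1463 in HPC, 8456, and 414 and 289. The block added Selp in HPC het against WT and Itga2b and Itga3 in HPC hom against het, and ended Itgb1 in the hom effect. Depth limits genes near 0.111 to 0.18 CPM, such as Sele.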
